A study of Rattus norvegicus with 6 samples.

Results

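Macrophage and granulocyte genes were followed in the mesenteric fat of newborn rats whose mothers ate feed with or without vitamin D. The set was a list of 34 genes by name: the transcription and growth factors of the myeloid lineage, signalling adaptors, general leukocyte genes, macrophage surface and lysosomal genes, the phagocyte NADPH oxidase, and granulocyte genes. The platform annotation assigned 42 of the 31099 probe sets on the array to exactly 1 of these symbols, and they covered 30 genes. The other 4, Spi1, Msr1, Marco and Mpo, had no such probe set, so their expression is not analysed here. Of the 42 probe sets, 33 (27 genes) were bright enough to be tested, with a mean over all 6 arrays of at least 6.46 in log2 signal, a signal of 88.2 intensity units. The 9 probe sets under that cutoff included all those of Trem2, Ncf1 and Csf3r.

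The animals were wildtype Sprague-Dawley rats, an outbred strain. Dams of the adequate group (3 arrays) received 1000 IU of vitamin D per kg of feed, and dams of the deficient group (3 arrays) received 0 IU per kg. Total RNA of the newborns' fat was hybridised to Affymetrix Rat Genome 230 2.0 arrays, and the values are MAS5 signals. The labels give no litter or sex and do not say whether each array came from its own animal, so the p-values may reflect a technical spread alone, and having 3 arrays a group limits the precision.

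Macrophages take up debris and microbes and, in adipose tissue, also remove lipid from dying fat cells. They arise under the transcription factors PU.1 (Spi1) and Irf8 and survive on Csf1, which binds the receptor Csf1r. Many of their surface receptors have no signalling part of their own and rely on the adaptors Tyrobp (DAP12) and Fcer1g, which carry a tyrosine motif that recruits kinases. Granulocytes share the NADPH oxidase with macrophages and store defensins and the calcium-binding proteins S100a8 and S100a9.

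For the 2 tested genes whose groups did not overlap, Irf8 and Laptm5, and for S100a9, a granulocyte gene whose groups overlapped, the promoter sequence is shown, from 250 bases before to 50 after the annotated start. The sequences are RefSeq's on the GRCr8 assembly, read 5′ to 3′ along the gene. Capitals mark the letters GAGGAA or, on the other strand, TTCCTC, a purine-rich core of the kind PU.1 binds.
Irf8 promoter, chr19:65699034-65699333, plus strand: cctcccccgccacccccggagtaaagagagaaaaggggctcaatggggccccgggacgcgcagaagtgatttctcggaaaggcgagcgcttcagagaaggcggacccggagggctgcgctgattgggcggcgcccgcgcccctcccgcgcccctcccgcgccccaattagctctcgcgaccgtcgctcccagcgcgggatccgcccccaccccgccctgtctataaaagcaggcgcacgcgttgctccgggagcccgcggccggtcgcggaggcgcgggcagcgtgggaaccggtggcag
Laptm5 promoter, chr5:148371630-148371929, plus strand: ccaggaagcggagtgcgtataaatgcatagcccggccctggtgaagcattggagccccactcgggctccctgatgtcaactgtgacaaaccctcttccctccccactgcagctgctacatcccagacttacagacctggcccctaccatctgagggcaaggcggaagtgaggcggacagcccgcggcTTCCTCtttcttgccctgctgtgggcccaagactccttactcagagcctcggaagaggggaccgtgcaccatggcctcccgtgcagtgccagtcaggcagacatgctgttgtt
S100a9 promoter, chr2:178490573-178490872, minus strand: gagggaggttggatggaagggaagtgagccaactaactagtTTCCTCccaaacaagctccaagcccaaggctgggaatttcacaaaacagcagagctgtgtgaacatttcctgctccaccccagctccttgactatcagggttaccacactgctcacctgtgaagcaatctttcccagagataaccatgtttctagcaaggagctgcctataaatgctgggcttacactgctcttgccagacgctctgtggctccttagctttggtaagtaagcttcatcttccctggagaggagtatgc
The core stood once in the Laptm5 promoter, 63 bases before the start, and once in that of S100a9, 209 bases before it, both times on the opposite strand. It was not in the Irf8 window. RefSeq's table held promoters for 21 of the 34 genes, and 14 of these (66.7%) held GAGGAA on either strand, against 27.6% of all 33469 promoters of the same length. Among the 14 were Marco and Mpo, whose expression is not analysed here, genes with lower values in the deficient group, such as Laptm5, and others with a log2 change nearer 0, such as S100a9 (0.06) and Mrc1 (-0.14). Of the other motifs counted, GAGGAAGT, AGGAAGT and GGAAGTGA share the letters GGAA with GAGGAA, and GAAACT and TGACTCA do not. The longer GAGGAAGT stood in 0 of the 21 promoters (2.42% of all), AGGAAGT in 4 (8.41%), GGAAGTGA in 2 (3.20%), GAAACT in 5 (16.6%) and TGACTCA in 2 (4.63%). These matches describe letters in a window and do not show binding.

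The deficient arrays did not form a uniform group. Deficient arrays 1 and 2 lay apart from the other 4 on the first principal component of all tested probe sets, at 43.1 and 46.4 against -26.2 to -18.5. Their bacterial hybridisation controls read 7.19 and 10.1 times the adequate mean, against 0.960 on deficient array 3, and the ratio of beta-actin signal at its 3′ to that at its 5′ end, which rises as RNA is degraded or labelled incompletely, was 7.56 and 6.80, against 2.35 to 4.81 on the others. For the tested genes of the set, the log2 change without deficient arrays 1 and 2 is therefore given too, with a single deficient array left. The tissue label was checked against 10 adipocyte markers. Fabp4 and Lpl were bright on all arrays, with group means of 11.03 to 11.15 and 10.33 to 10.45 in log2 signal. Adipoq, Plin1, Plin4, Cidec, Lep and Pparg lay under the cutoff. The smooth muscle markers Actg2 and Myh11 (brighter probe set) were brighter still, with group means of 14.34 to 15.01 and 14.03 to 14.72. What share of the tissue was fat cells was not tested.

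Most of the macrophage and granulocyte probe sets had lower values in the deficient group, but none passed the test. With limma, 0 of the 33 tested probe sets had a Benjamini-Hochberg adjusted p under 0.05, as did 0% of all 18625 tested. At an unadjusted p under 0.05, 8 were lower (24.2% of the 33, against 8.18% of all tested probe sets), each of a different gene: Irf8, Tyrobp, Fcer1g, Laptm5, Lcp1, Cyba, Rac2 and Np4. One probe set, of Csf1, was higher (6.03% of all tested were). It reached the cutoff only through the deficient arrays, where it was high, so that count is a description only. The set itself was chosen with earlier results of these data known, so its shares beside those of all probe sets are descriptions too. The median log2 change, deficient minus adequate, was -0.29 over the 33 probe sets and -0.05 over all tested, and 25 of the 33 were below 0, against 55.3% of all. The groups did not overlap for 2 of the 33, both lower (6.06%), a smaller share than the 10.8% of all tested probe sets, and for 0 with higher values (6.55% of all). The lower count of 8 was 4, 11 and 2 without adequate array 1, 2 and 3 and 1, 2 and 14 without deficient array 1, 2 and 3. The share of all tested probe sets moved as well, to 2.63%, 7% and 3.68% and to 5.55%, 2.82% and 20.6%. Without deficient array 1, then, 1 of the 33 was a smaller share than the 5.55% of all. In 1 of the settings run, without deficient array 3, 13 of the 33 passed the adjusted threshold, as did 19.4% of all. That Csf1 probe set was among the 13. In whole tissue, fewer cells of a type and less RNA per cell cannot be told apart.

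**Figure D1:**
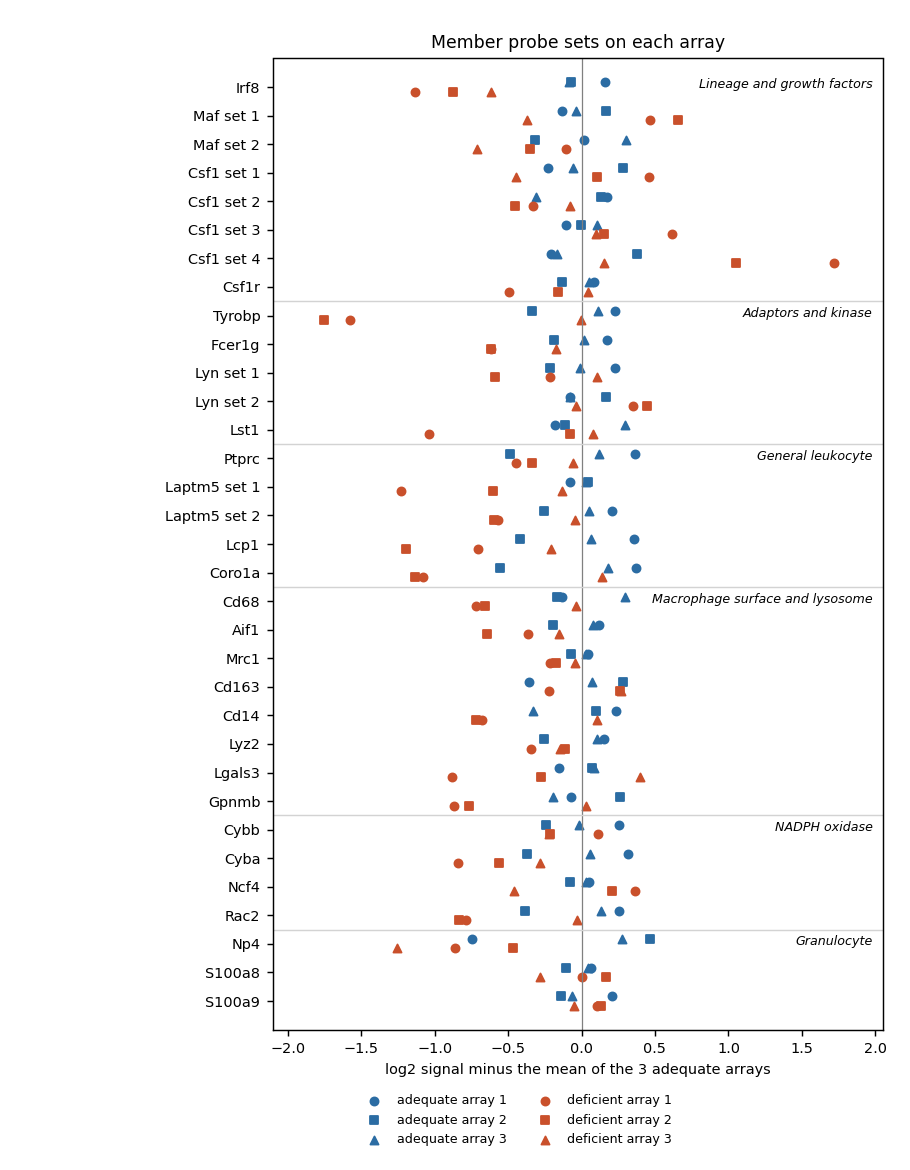
Log2 signal of each tested probe set on each array, minus the mean of the 3 adequate arrays (horizontal axis, log2 units), ordered by role. Circles, squares and triangles are arrays 1, 2 and 3 of each diet, and sets of a gene are numbered from the brightest down. Deficient arrays 1 and 2 lie left of the adequate arrays for most adaptor, leukocyte and macrophage genes, while deficient array 3 mostly lies among them.

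The lower values came mainly from deficient arrays 1 and 2. Of the 33 probe sets, 21 (63.6%) on deficient array 1 and 19 (57.6%) on deficient array 2 read below all 3 adequate arrays, where 39.2% and 42.9% of all tested probe sets did. On deficient array 3 it was 8 (24.2%), against 28.2% of all. The median deviation of the 33 from the adequate mean was 0.09, -0.11 and 0.05 with the adequate diet and -0.45, -0.35 and -0.05 with the deficient diet, in the order of arrays 1, 2 and 3. The summed signal of the brightest probe set of each of the 30 genes was 34915, 29174 and 33556 intensity units under the adequate diet and 23598, 26201 and 30656 under the deficient diet. Only the sums of deficient arrays 1 and 2 lay under all of the adequate ones.

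Among the lineage genes, Irf8 stood lower on every deficient array. Irf8 is a transcription factor with roles in monocytes, macrophages and dendritic cells. In the same order of arrays, which is kept below, it read 9.95, 9.72 and 9.70 under the adequate diet and 8.65, 8.91 and 9.17 under the deficient diet in log2 signal. The highest deficient array lay 0.53 under the lowest adequate one. The group means were 9.79 ± 0.14 with the adequate and 8.91 ± 0.26 with the deficient diet (SD, n = 3 each), a log2 change of -0.88 ± 0.18 (SE) and a fold of 0.545, with an unadjusted p of 0.000711 and a limma adjusted p of 0.344. The unadjusted p stayed under 0.05 in all 16 alternatives. The log2 change was -0.62 without deficient arrays 1 and 2 and -1.0 without deficient array 3, where the adjusted p was 0.00426.

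Csf1r, the receptor that macrophages depend on, had overlapping groups. It read 9.61, 9.39 and 9.57 under the adequate diet and 9.03, 9.37 and 9.57 under the deficient diet, a log2 change of -0.20 ± 0.18 (SE), and without deficient arrays 1 and 2 the change was 0.04. The 4 probe sets of its ligand Csf1 disagreed. The dimmest read 5.93, 6.52 and 5.98 under the adequate diet and 7.87, 7.19 and 6.30 under the deficient diet, with deficient arrays 1 and 2 above all others. Its log2 change was 0.97 ± 0.39 (SE), and 0.15 without deficient arrays 1 and 2. No fold or p is given here because the adequate mean, 6.15, lies under the cutoff, so that the probe set was tested only through its high deficient values. The other Csf1 probe sets had log2 changes of 0.04, -0.29 and 0.29 (unadjusted p 0.255 or more), and of -0.45, -0.08 and 0.10 without deficient arrays 1 and 2.

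Maf, a transcription factor of macrophages that is also made in many connective tissue cells, had 2 tested probe sets that went opposite ways. The brighter read 11.05, 11.36 and 11.15 under the adequate diet and 11.65, 11.84 and 10.82 under the deficient diet, high on deficient arrays 1 and 2 and lowest on deficient array 3. The other read 9.18, 8.84 and 9.46 under the adequate diet and 9.06, 8.81 and 8.45 under the deficient diet. The log2 changes were 0.25 ± 0.24 and -0.39 ± 0.22 (SE), with unadjusted p of 0.329 and 0.113. Without deficient arrays 1 and 2 both were below 0, at -0.37 and -0.71.

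The adaptors Tyrobp and Fcer1g had lower means in the deficient group. Tyrobp read 10.76, 10.20 and 10.65 under the adequate diet and 8.96, 8.78 and 10.53 under the deficient diet, so deficient arrays 1 and 2 lay far below every adequate array and deficient array 3 lay among them. The means were 10.54 ± 0.30 with the adequate and 9.42 ± 0.96 with the deficient diet (SD, n = 3 each), a log2 change of -1.11 ± 0.39 (SE), a fold of 0.462, an unadjusted p of 0.0163 and a limma adjusted p of 0.344. Without deficient array 3 the log2 change was -1.67 (adjusted p 0.000914), and without deficient arrays 1 and 2 it was -0.01. Fcer1g, which serves Fc receptors on macrophages and also on mast cells, read 10.78, 10.42 and 10.62 under the adequate diet and 9.99, 9.99 and 10.44 under the deficient diet. The spread was smaller here, and deficient array 3 read 10.44 against 10.42 on the lowest adequate array. Its log2 change was -0.47 ± 0.18, a fold of 0.723 (unadjusted p 0.0247), and -0.17 without deficient arrays 1 and 2.

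The other genes of this role had unadjusted p of 0.302 or more, or were not tested. Lyn, a Src-family kinase that phosphorylates such adaptors, had one probe set at a log2 change of -0.23 ± 0.27 and another at 0.25 ± 0.25 (SE), and without deficient arrays 1 and 2 both signs turned, to 0.11 and -0.04. Lst1, a small leukocyte membrane protein, read 7.22, 7.28 and 7.69 under the adequate diet and 6.36, 7.32 and 7.48 under the deficient diet, so that only deficient array 1 was low. Its log2 change was -0.35 ± 0.32, and 0.08 without deficient arrays 1 and 2. Trem2, a lipid-sensing receptor that signals through Tyrobp, was dim on both of its probe sets. The brighter read 5.54, 5.68 and 5.68 under the adequate diet and 3.23, 6.30 and 5.32 under the deficient diet, with the lowest and the highest value both in the deficient group.

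**Figure D2:**
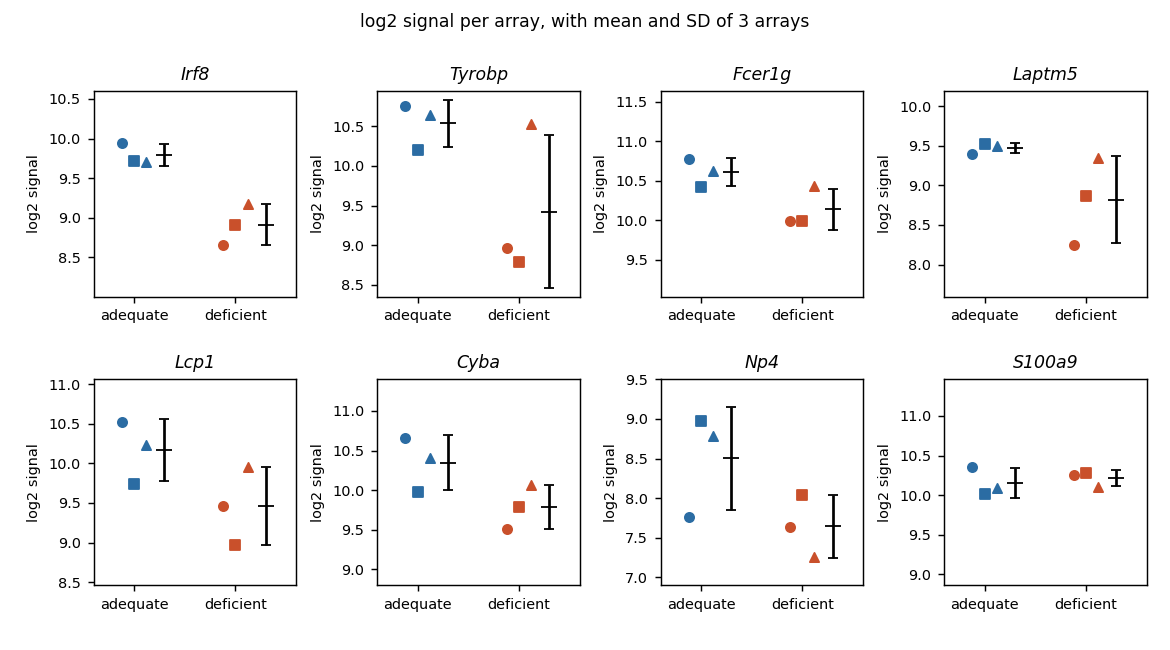
Log2 signal per array for 8 genes (Laptm5 by its brighter probe set), adequate in blue and deficient in orange, with circles, squares and triangles for arrays 1, 2 and 3 and bars for the mean and SD of 3 arrays. Every panel spans the same number of log2 units, and only Irf8 and Laptm5 have groups that do not overlap.

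General leukocyte genes had lower means on all 5 tested probe sets, with a median log2 change of -0.65. Laptm5, a lysosomal membrane protein of blood cells, read 9.40, 9.52 and 9.50 under the adequate diet and 8.25, 8.87 and 9.34 under the deficient diet on its brighter probe set. The groups did not overlap, although deficient array 3 was only 0.06 under the lowest adequate array. The log2 change was -0.65 ± 0.25 (SE), a fold of 0.635 (unadjusted p 0.026), and on its other probe set -0.41 ± 0.21 with overlap. Lcp1 (L-plastin), which bundles actin in leukocytes, read 10.52, 9.74 and 10.23 under the adequate diet and 9.46, 8.97 and 9.95 under the deficient diet. Its log2 change was -0.70 ± 0.27, a fold of 0.614 (unadjusted p 0.0247). Coro1a, another actin regulator of leukocytes, read 11.12, 10.19 and 10.93 under the adequate diet and 9.66, 9.61 and 10.88 under the deficient diet, a log2 change of -0.69 ± 0.34 (unadjusted p 0.0701).

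In Lcp1 and Coro1a, adequate array 2 was the lowest of its group and deficient array 3 the highest of its own. Ptprc (CD45), the phosphatase on all white blood cells, showed the same order more plainly. It read 10.02, 9.16 and 9.77 under the adequate diet and 9.20, 9.31 and 9.59 under the deficient diet, so adequate array 2 was the lowest of all 6, and the log2 change was -0.28 ± 0.23 (unadjusted p 0.248). Its dimmer probe set, which missed the cutoff, read 7.22, 6.44 and 7.16 under the adequate diet and 5.84, 5.06 and 6.85 under the deficient diet. Without deficient arrays 1 and 2, the log2 changes were -0.13 and -0.05 for the Laptm5 probe sets, -0.21 for Lcp1, 0.14 for Coro1a and -0.06 for the brighter Ptprc set.

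**Figure D3:**
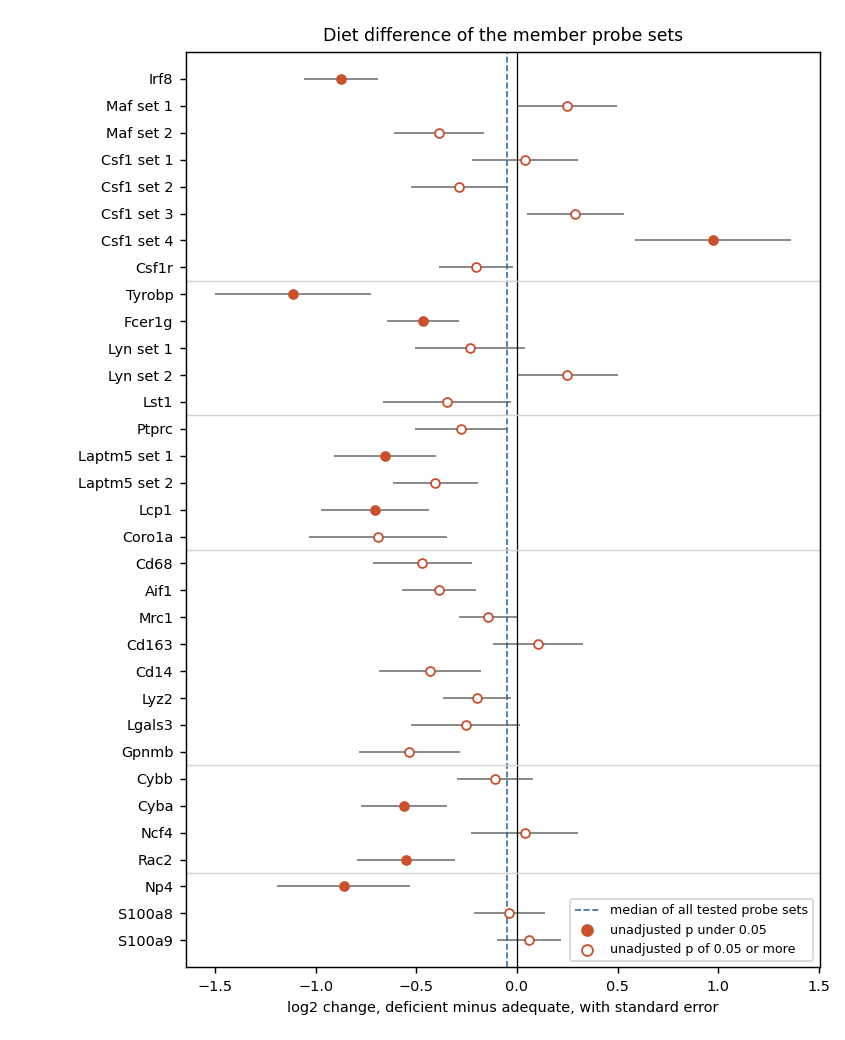
Log2 change of each tested probe set, deficient minus adequate, with its standard error from limma. Filled points have an unadjusted p under 0.05, and the dashed line is the median of all tested probe sets, -0.05. Of the filled points, 8 lie left of it and 1, a Csf1 probe set whose adequate mean is under the cutoff, lies right.

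No gene of the macrophage surface and lysosome group had an unadjusted p under 0.05, although 7 of 8 had lower means, with a median log2 change of -0.32. On leaving out deficient arrays 1 and 2, 4 of the 8 were below 0. The largest difference was in Gpnmb, a glycoprotein of lipid-laden macrophages, which read 9.31, 9.64 and 9.18 under the adequate diet and 8.51, 8.61 and 9.41 under the deficient diet. Deficient arrays 1 and 2 lay under the adequate range and deficient array 3 within it, for a log2 change of -0.53 ± 0.25 (SE, unadjusted p 0.0581), and 0.03 without deficient arrays 1 and 2. Cd68, a lysosomal glycoprotein used as a general macrophage marker, read 8.11, 8.08 and 8.54 under the adequate diet and 7.53, 7.59 and 8.21 under the deficient diet. Its log2 change was -0.47 ± 0.25 (unadjusted p 0.0872), and -0.04 without those 2 arrays. Cd14, the coreceptor for bacterial lipopolysaccharide, read 9.45, 9.31 and 8.88 under the adequate diet and 8.54, 8.49 and 9.32 under the deficient diet. Here too deficient arrays 1 and 2 lay under all adequate arrays and deficient array 3 among them, and the log2 change of -0.43 ± 0.25 turned to 0.10 without deficient arrays 1 and 2. Aif1 (Iba1), an actin-binding protein of macrophages, had -0.39 ± 0.18 (unadjusted p 0.0593), and -0.15 without them.

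Mrc1 and Cd163, markers of resident tissue macrophages, had log2 changes of about their standard error or less. Other genes of such cells in the wider list below, such as Clec10a, Folr2 and Lyve1, had larger changes, in either direction. The mannose receptor Mrc1 read 10.64, 10.53 and 10.63 under the adequate diet and 10.39, 10.43 and 10.56 under the deficient diet, a log2 change of -0.14 ± 0.14 (SE, unadjusted p 0.34). The haemoglobin scavenger receptor Cd163 read 8.44, 9.08 and 8.87 under the adequate diet and 8.57, 9.05 and 9.06 under the deficient diet, a log2 change of 0.10 ± 0.22. Lyz2, the lysozyme of macrophages and neutrophils, was at -0.20 ± 0.17. These 3 were at -0.04, 0.27 and -0.14 without deficient arrays 1 and 2. Lgals3, a galectin of macrophages that epithelia also make, read 11.47, 11.70 and 11.71 under the adequate diet and 10.74, 11.35 and 12.02 under the deficient diet, with deficient array 1 the lowest and deficient array 3 the highest of all 6. Its log2 change was -0.25 ± 0.27 with all arrays, -0.58 without deficient array 3 and 0.40 without deficient arrays 1 and 2.

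Of the NADPH oxidase subunits, Cyba and Rac2 had lower means at an unadjusted p under 0.05 and Cybb and Ncf4 did not, and the difference between subunits was not tested. Cyba (p22phox) and Cybb (gp91phox) form the membrane part of the enzyme. Cyba read 10.66, 9.97 and 10.40 under the adequate diet and 9.51, 9.79 and 10.06 under the deficient diet, where deficient array 3 lay above adequate array 2 and the other deficient arrays under all adequate arrays. The log2 change was -0.56 ± 0.21 (SE), a fold of 0.678 (unadjusted p 0.0244), and -0.28 without deficient arrays 1 and 2. Cybb read 9.67, 9.17 and 9.39 under the adequate diet and 9.52, 9.19 and 9.19 under the deficient diet, with the groups interleaved and a log2 change of -0.11 ± 0.19 (unadjusted p 0.582), and -0.22 without those arrays.

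Of the cytosolic part, the GTPase Rac2 read 11.07, 10.42 and 10.94 under the adequate diet and 10.02, 9.97 and 10.78 under the deficient diet, a log2 change of -0.55 ± 0.25 and a fold of 0.683 (unadjusted p 0.0477). Without deficient arrays 1 and 2 its change was -0.03. Ncf4 (p40phox) read 7.28, 7.15 and 7.26 under the adequate diet and 7.59, 7.44 and 6.77 under the deficient diet, high on deficient arrays 1 and 2 and lowest on deficient array 3, a log2 change of 0.04 ± 0.26 that was -0.46 without deficient arrays 1 and 2. Ncf1 (p47phox) was too dim to be tested and read 4.96, 4.45 and 5.21 under the adequate diet and 4.29, 3.07 and 4.17 under the deficient diet. Its groups did not overlap, but at signals of 8 to 37 intensity units, deep below the cutoff.

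Of the granulocyte genes, a defensin gene had a lower mean, and the calprotectin genes had log2 changes smaller than their standard errors. Np4, a neutrophil alpha-defensin, read 7.76, 8.97 and 8.78 under the adequate diet and 7.64, 8.04 and 7.25 under the deficient diet. Adequate arrays 2 and 3 lay above all others, and adequate array 1 lay among the deficient arrays, the lowest of which was array 3. The means were 8.50 ± 0.65 with the adequate and 7.64 ± 0.39 with the deficient diet (SD, n = 3 each), a log2 change of -0.86 ± 0.33 (SE), a fold of 0.551, an unadjusted p of 0.0255 and a limma adjusted p of 0.344. Np4 was the only one of the 8 genes whose difference grew without deficient arrays 1 and 2, to -1.25 (unadjusted p 0.0237, adjusted p 0.755). The unadjusted p was above 0.05 on leaving out adequate array 2 (0.110), adequate array 3 (0.0845), deficient array 1 (0.0543) and deficient array 3 (0.0779), each in turn.

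S100a8 and S100a9, which form calprotectin in neutrophils and monocytes, read 9.47, 9.30 and 9.45 under the adequate diet and 9.41, 9.57 and 9.12 under the deficient diet, and 10.36, 10.01 and 10.09 under the adequate diet and 10.26, 10.28 and 10.10 under the deficient diet. The log2 changes were -0.04 ± 0.17 and 0.06 ± 0.16 (SE), the groups overlapped, and without deficient arrays 1 and 2 the changes were -0.28 and -0.05. Csf3r, the receptor for the granulocyte growth factor G-CSF, was under the cutoff and read 6.35, 5.89 and 5.81 under the adequate diet and 5.20, 5.40 and 5.46 under the deficient diet. Its groups did not overlap, and only adequate array 1 came near the cutoff.

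In a wider list of 114 further myeloid genes, lower values at an unadjusted p under 0.05 were also more frequent than among all probe sets. This list too was chosen with earlier results of these data known, so its shares are descriptions only. Of the 114 genes, 88 had a probe set and 57 a tested one. Of 66 tested probe sets, 12 were lower at an unadjusted p under 0.05 (18.2%, against 8.18% of all) and 3 higher. With limma, 0 passed adjustment over all probe sets, and the median log2 change was -0.18. The groups did not overlap for 7 with lower values (10.6%, close to the 10.8% of all tested) and for 1 with higher values. Among signalling and transcription genes (24 probe sets, 3 lower and 1 higher, median -0.05), Ptpn6 (SHP-1), a phosphatase that restrains myeloid receptors, read 8.53, 8.11 and 8.29 under the adequate diet and 7.46, 7.49 and 7.49 under the deficient diet. As with Irf8, all deficient arrays lay under all adequate arrays, and the log2 change was -0.83 ± 0.21 (SE, unadjusted p 0.0022, adjusted p 0.344). Sirpa, a receptor that curbs phagocytosis, was at -0.56 ± 0.21, while another tested Sirpa probe set was at 0.38 ± 0.31. The adequate mean of that other set lay under the cutoff, so it was tested only through its high deficient values. Runx1, a transcription factor of blood stem cells, was the higher one, at 0.93 ± 0.41, with only deficient arrays 1 and 2 above the adequate range.

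Among further macrophage genes (26 probe sets, 6 lower and 0 higher, median -0.25), Pld4, a nuclease of phagocyte endosomes, read 8.37, 8.27 and 8.43 under the adequate diet and 7.93, 7.82 and 7.77 under the deficient diet, without overlap and with a log2 change of -0.52 ± 0.19 (SE). The tetraspanins Cd53 and Cd37 were at -0.61 ± 0.22 and -0.72 ± 0.29. The lectin Clec10a of resident macrophages read 9.22, 9.43 and 9.23 under the adequate diet and 7.99, 8.30 and 9.33 under the deficient diet. Its log2 change was -0.75 ± 0.30, with deficient array 3 within the adequate range. Folr2 and Stab1 were at -0.57 ± 0.25 and -0.26 ± 0.15, both without overlap. Lyve1 was at 0.44 ± 0.21 on its brightest and 0.00 ± 0.15 on its other probe set. In this list the groups did not overlap for 4 of the 26, all lower (15.4%, against 10.8% of all tested). Of the further oxidase genes (6 probe sets, 2 lower and 1 higher, median -0.15), the probe sets of a gene disagreed. Cybc1, a chaperone of the Cyba and Cybb pair, was at -0.07 ± 0.16 on its brightest and -0.72 ± 0.27 on its other probe set (SE). The widely expressed GTPase Rac1 was at 0.10 ± 0.16 on its brightest and -0.59 ± 0.26 on the lower one with the smallest p, and the GTPase Rap1a at 0.44 ± 0.19 and -0.23 ± 0.20.

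Of the further granulocyte genes (10 probe sets, 1 lower and 1 higher, median -0.23), the secreted lipocalin Lcn2 was at -0.96 ± 0.38 (SE) and the lipid-binding Anxa1, which fibroblasts and epithelia also make, at 0.46 ± 0.16. The defensin genes RatNP-3b and Defa5 are close relatives of Np4, so their probes may share signal with it. RatNP-3b read 8.34, 8.43 and 8.61 under the adequate diet and 7.89, 8.61 and 6.68 under the deficient diet, and Defa5 read 8.28, 8.22 and 8.62 under the adequate diet and 8.44, 8.60 and 6.81 under the deficient diet. In both, as in Np4, deficient array 3 was the lowest of the 6 arrays, while deficient array 2 lay near the highest adequate array. Their log2 changes were -0.73 ± 0.40 and -0.42 ± 0.41 (unadjusted p 0.0961 and 0.323).

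**Figure D4:**
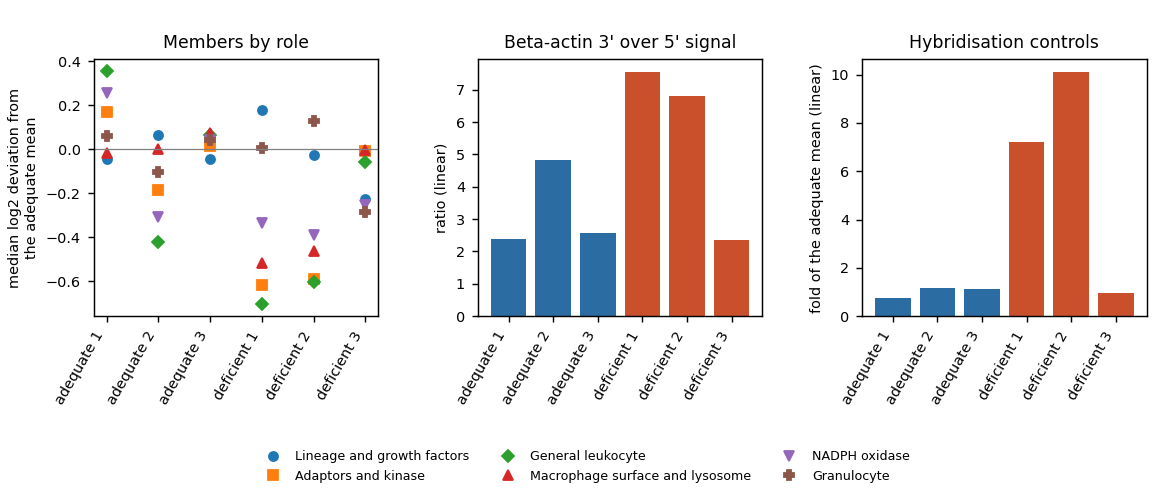
Left, the median log2 deviation from the adequate mean over the tested probe sets of each role on each array. Middle and right, the beta-actin 3′ over 5′ ratio and the hybridisation controls as a fold of the adequate mean, on linear axes from 0 (adequate blue, deficient orange). General leukocyte genes are lowest on deficient array 1, deficient array 2 and adequate array 2, which have the highest actin ratios, 7.56, 6.80 and 4.81.

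Technical measures moved with several of these genes. The median deviation of the general leukocyte genes was 0.36, -0.42 and 0.06 under the adequate diet and -0.71, -0.60 and -0.06 under the deficient diet. The actin ratio on the same arrays was 2.39, 4.81 and 2.58, then 7.56, 6.80 and 2.35. Deficient arrays 1 and 2 and adequate array 2, with the highest ratios, had the lowest leukocyte values. The adaptor, oxidase and granulocyte medians were also lowest on array 2 within the adequate group, at -0.19, -0.31 and -0.10. The macrophage and lineage medians were not, at 0.00 and 0.06 on that array. The granulocyte median was 0.01, 0.13 and -0.28 on deficient arrays 1, 2 and 3. It was thus the lowest of all 6 on deficient array 3, where the actin ratio was lowest too. With the log2 actin ratio as a covariate, 3 of the 33 probe sets were lower at an unadjusted p under 0.05 (9.09%, against 3.52% of all): Irf8 at -0.73, Tyrobp at -0.51 and Np4 at -1.18. The median log2 change of the 33 was then -0.17. The hybridisation controls were high on deficient arrays 1 and 2 alone, so a fit with them as a covariate compares mainly deficient array 3. Irf8 was at -0.63 and Tyrobp at -0.04 in it, against -0.62 and -0.01 without deficient arrays 1 and 2. With the hybridisation controls as a covariate there were 4 (12.1%, against 2.56% of all), those of Irf8 and Np4 and the 2 of Maf, and the median log2 change was -0.05. With either covariate 0 were higher at that p (3.53% of all with the actin ratio and 1.68% with the hybridisation controls), and limma's adjusted threshold was passed by 0 probe sets.

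Markers of other cells differed too, with 0 past limma's adjusted threshold. Of 12 lymphocyte markers 7 were tested on 8 probe sets, all lower, 4 of them at an unadjusted p under 0.05 (8.18% of all tested were), and of 12 mast cell markers 9 were tested on 9 probe sets, 8 of them lower and 3 at that p. One call in each list, Cd3e and Tpsb2, had a deficient mean under the cutoff and was tested only through its high adequate values. Of 12 endothelial markers 10 were tested on 11 probe sets, 8 of them lower and 4 at that p. All 10 smooth muscle markers were tested on 14 probe sets, 9 of them higher, with 6 higher and 1 lower at that p (6.03% of all tested were higher), and 1 of the 6, of Tpm2, was tested only through its high deficient values. All 10 fibroblast markers were tested on 15 probe sets, 9 of them higher, with 2 higher and 1 lower at that p. Of 10 adipocyte markers 4 were tested, 3 of them lower and 0 at that p, and of 10 erythroid markers 4, 3 of them lower and 1 at that p.

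The summed marker signals split the deficient arrays as many of the genes above did. For lymphocyte markers the sum was 3735 to 5878 on the adequate arrays and 2911, 2687 and 4296 on deficient arrays 1, 2 and 3, and for mast cell markers 6177 to 8647 and 5194, 5232 and 7937. For fibroblast markers it was 87384 to 102780 and 184470, 184310 and 92977, and for erythroid markers 19928 to 21809 and 34125, 35572 and 20651. In these 4 lists deficient array 3 lay within the adequate range and the other deficient arrays outside it. Most of the lymphocyte sum came from Cd74. Its signal was between 2366 and 3629 intensity units with the adequate diet. With the deficient diet it was 1679, 1737 and 2613, in the order of arrays. Which cells made Cd74 was not tested, so this sum need not follow lymphocytes alone. Most of the erythroid sum was Hbb, at 18699 to 20022 on the adequate arrays and 32957 and 34574 on deficient arrays 1 and 2. The other tested erythroid markers, Alas2, Slc4a1 and Ahsp, had log2 changes below 0, at -0.59, -0.16 and -0.09. Smooth muscle sums were 90275 to 110640 and 176150, 182010 and 111930, with deficient array 3 just above the adequate range. Endothelial sums were 16739 to 17946 and 14040, 13346 and 15968, all lower, and adipocyte sums 4298 to 4393 and 3715, 3268 and 5165. Of the defining markers Cd2, Cd79b and Ms4a1 of lymphocytes and Kit and Mcpt4 of mast cells lay under the cutoff. The groups did not overlap for 1 of the 8 lymphocyte probe sets, that of Blnk (12.5%, against 10.8% of all tested). It read 8.63, 8.37 and 8.35 under the adequate diet and 8.28, 7.86 and 7.67 under the deficient diet. Lymphocytes and mast cells express some of the genes above, such as Ptprc, Coro1a, Rac2, Laptm5 and Fcer1g. The part of these cells in the differences, that of Irf8 included, was not tested.

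**Figure D5:**
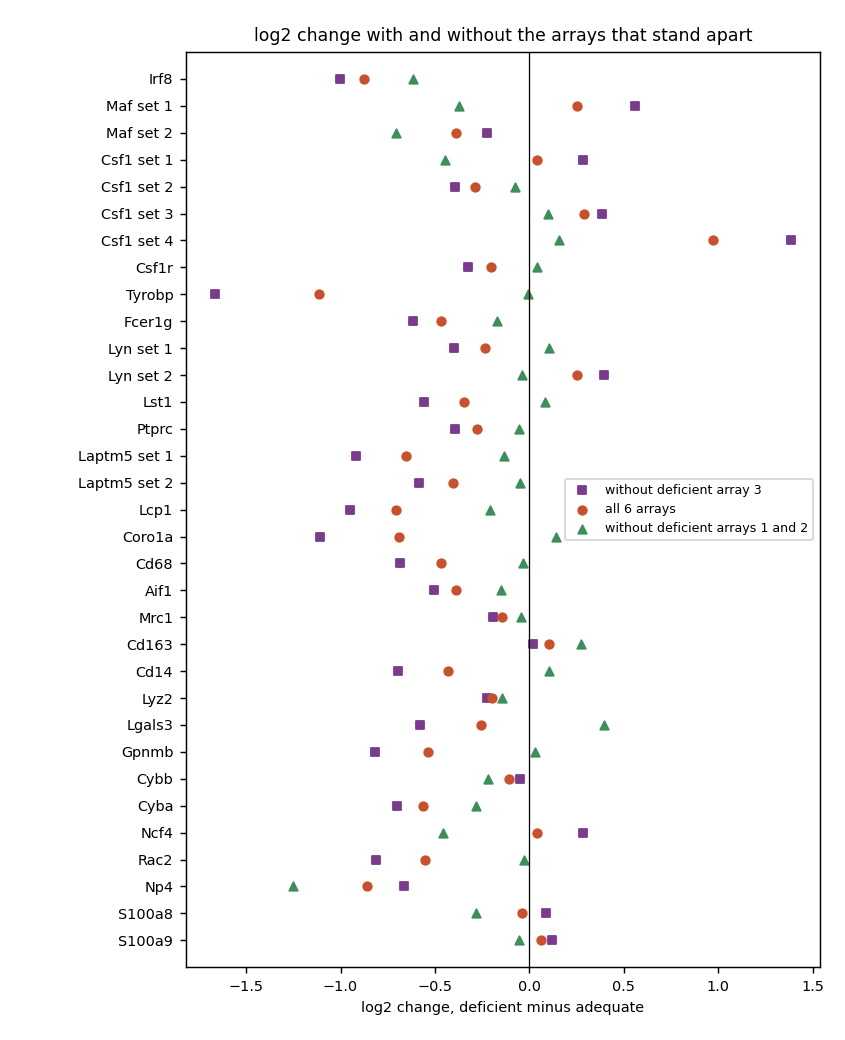
Log2 change of each tested probe set with all 6 arrays (circles), without deficient array 3 (squares) and without deficient arrays 1 and 2 (triangles). Irf8 and Np4 lie well left of 0 in all of them, whereas Tyrobp goes from -1.67 through -1.11 to -0.01.

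Leaving out the arrays that stand apart separated the genes. Without deficient array 3, 11 of the 33 probe sets passed the limma adjusted threshold with lower values (10.7% of all tested did): Irf8, Tyrobp, Fcer1g, Laptm5, Lcp1, Coro1a, Cyba, Rac2, Cd14, Gpnmb and Lgals3. With higher values 2 passed, the dim Csf1 and the brighter Maf probe set (8.75% of all). The Csf1 set was tested only through its high deficient values, so its place in that count is a description only. Without deficient arrays 1 and 2, which leaves a single deficient array assumed to vary like the adequate ones, 0 passed. At an unadjusted p under 0.05, 3 probe sets were then lower, those of Irf8 and Np4 and the dimmer tested one of Maf (4.14% of all), and 1 was higher, Lgals3 (2.38% of all). Irf8 was the only gene lower at an unadjusted p under 0.05 in every setting run, and Np4 was so in 11 of its 15 alternatives.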

How the data were processed

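The members and gene lists were chosen with earlier results of these data known. The deposited values are linear intensity signals, 1 per probe set and array, which the authors made with MAS5 and Affymetrix Expression Console, per the submitters' processing notes (versions and detection calls: not given in the sources used here). Their 2% trimmed mean lay between 500.1 and 500.2 on every array, so each array is scaled to a common level and overall RNA differences are lost.

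The 57 control probe sets were left out, and log2 signals without an offset were tested where the mean over all 6 arrays reached the 40th percentile (18625 of 31042). Dim MAS5 signals vary strongly on the log scale. Deficient minus adequate was fitted over all tested probe sets with limma 3.58.1 in R 4.3.3 (lmFit, eBayes with a variance trend), two-sided, Benjamini-Hochberg adjusted at 0.05, and the script was tested on simulated data. Genes were named only from probe sets with 1 symbol (20826). All 30 member genes with a probe set matched RefSeq's GRCr8 table by Entrez identifier, with 0 symbols changed. Members with an unadjusted p under 0.05, or without overlap between the diets, are given per array, with others that define a role, and in each related list up to 4 genes with the smallest p, 1 of which is not reported here. RatNP-3b and Defa5 were picked for their likeness to Np4, and Folr2, Stab1 and Lyve1 to stand beside Mrc1 and Cd163. No fold is given where a group mean lies under the cutoff. Figures were drawn with matplotlib 3.10.9.

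As alternatives, the fit was rerun with median centring, quantile normalization, no filter, the 60th percentile, an offset of 50, no variance trend, the replicate number as a block, hybridisation controls or the actin ratio as a covariate, the brightest probe set per gene, and leaving out single arrays or deficient arrays 1 and 2.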

Additional observations from a re-analysis of the deposited data

How the results depend on the processing

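The 33 tested probe sets had a median log2 change of -0.29, with 8 lower and 1 higher at an unadjusted p under 0.05 and 0 past the adjusted threshold. Leaving out single arrays gave 1 to 14 lower, 0 to 2 higher and 0 to 13 past the adjusted threshold. The lower count was smallest without deficient array 1 and largest without deficient array 3. The lower share of all tested probe sets ran from 2.63%, without adequate array 1, to 20.6%, without deficient array 3. Without deficient array 1, 1 of the 33 was lower, a smaller share than the 5.55% of all tested. The lower count was 4 without adequate array 1, 2 without adequate array 3 and 2 without deficient array 2. Without deficient arrays 1 and 2 the median was -0.055 with 3 lower, with the hybridisation covariate -0.050 with 4 lower, and with the actin covariate -0.167 with 3 lower. The higher count was 0 with either covariate, with the filter at the 60th percentile and with the brightest probe set of each gene. The 1 higher probe set with all arrays, of Csf1, was tested only through its high deficient values. It is also among the 13. The other settings, quantile normalization included, kept the lower count between 6 and 11 and the median between -0.39 and -0.25.

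With the replicate number as a block, 11 were lower (9.95% of all tested), 1 higher and 0 passed the adjusted threshold. Deviations of same-numbered arrays correlated at 0.107, 0.153 and 0.00655, so the numbers were not taken as pairs.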
